A study of Rattus norvegicus with 24 samples.

Results

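The clustered protocadherin locus of the rat was taken as every feature on chromosome 18 whose lowest start lay between 29.4 and 30.7 Mb and which had 10 or more counts summed over 24 RNA-seq libraries. The window held 43 features, and 41 passed the count minimum, of 27051 genes with a count anywhere and 32552 genes listed. The 2 features left out had 2 and 0 counts. The libraries were made from ribosome-depleted total RNA of Sprague Dawley rats treated with either the opioid fentanyl or saline. By its title the series concerns opioid withdrawal in rats offered fentanyl and food as alternatives. Punches came from the nucleus accumbens (NAc, punch of 2.16 mm inner diameter) and the ventral tegmental area (VTA, 1.19 mm). For each sex, the NAc groups had 4 rats on fentanyl and 3 on saline, and the VTA groups 3 and 2. These were 14 rats in all, 10 of which gave a library from both regions. Doses, ages and the length of exposure were not given in the sources used here. Each library is a different rat within its group, and the p-values of fentanyl against saline within a region measure the spread between these rats. Those of the comparisons between regions rest on how the within-rat difference varied over the 10 rats.

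Clustered protocadherins are cadherin-type adhesion proteins of the neuronal surface. Their genes lie in adjacent alpha, beta and gamma clusters. In the alpha and gamma clusters many alternative variable exons, each with its own promoter, are spliced to a shared set of constant exons, whereas the beta genes are single-exon genes that carry no constant exons. Single neurons use different combinations of these promoters, and homophilic binding between matching combinations lets a neuron distinguish its own processes from those of other neurons. The promoters share a conserved sequence element that is bound by the chromatin factor CTCF.

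The files give Ensembl gene identifiers and exon coordinates but no gene symbols, and none of the 41 identifiers could be matched to a symbol. The members were therefore numbered within their run in the order of their starts. These numbers were not taken from protocadherin gene symbols, and whether they match the numbers of the genes was not checked. By position along the chromosome the window held 13 flanking features (starts 29494014 to 29647838, 1 to 27 exons, 7 on the plus and 6 on the minus strand), 5 alpha-type features (starts 29951094 to 29987206) and 23 beta-type features (starts 30283675 to 30592794), the last 2 runs wholly on the plus strand. For these coordinates the genome build is not given in the sources used here. Within the window, the alpha-type run had 4 single-exon features of 2370 to 2388 nt and 1 long feature, alpha-type member 5 (ENSRNOG00000020119, 29987206 to 30215897). That long feature listed 10 exons of 2355 to 2562 nt once each and exons of 59, 89 and 2709 nt 10 times each, the layout of variable exons joined to a shared constant set. Because its counts sum over all those exons, a change of variable exon within it cannot be read from them. Transcripts that start at the 4 single-exon features may also carry the shared exons, and such reads would be counted on the long feature. The beta-type run had 19 single-exon and 4 2-exon features, and 21 of the 23 contained an exon over 2000 nt. Another run of the same kind, 20 gamma-type features on the plus strand with starts from 30808404 to 30913842, lay past the end of the window. The window named for the 3 clusters thus held the alpha-type and beta-type runs and none of the gamma-type run, which is used here only for comparison.

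Most promoters of the RefSeq beta genes have a sequence in common, and the 6 stretches below come from both ends of the RefSeq beta cluster. Whether these letters bear on the region difference described later was not tested. RefSeq (build GRCr8) gives promoter windows, 250 bases before to 50 after the start, for 19 Pcdhb genes. The 10-base word shared by the most of them was GGTGGCGCTG, searched on both strands. It stood in 15 of 19 Pcdhb windows, against 74 of 33469 windows of all genes (0.221%), in 0 of 15 Pcdhg windows and in the 1 Pcdha window not at all. The core motif of CTCF, searched in an 11-base form on both strands, stood in 0 of 19 Pcdhb windows, 1 of 15 Pcdhg windows and 0 of 1 Pcdha window, against 2465 of 33469 windows of all genes (7.37%). That form is a single fixed spelling, so a window without it is not shown to lack a CTCF site. Whether the shared word is part of the conserved element bound by CTCF was not tested. Binding was not measured. In 14 of the 15 windows with the shared word, the printed stretch lay wholly upstream of the start, and there the word began 46 to 229 bases before the start, with a median of 68.5. The stretches are from the plus strand at chr18:29279903-29279962 (Pcdhb2), chr18:29285584-29285643 (Pcdhb3), chr18:29292191-29292250 (Pcdhb4), chr18:29478744-29478803 (Pcdhb19), chr18:29485790-29485849 (Pcdhb20) and chr18:29492129-29492188 (Pcdhb21), with the word in capitals:
Pcdhb2: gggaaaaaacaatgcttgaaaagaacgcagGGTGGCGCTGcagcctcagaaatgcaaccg
Pcdhb3: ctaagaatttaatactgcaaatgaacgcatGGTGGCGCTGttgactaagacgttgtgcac
Pcdhb4: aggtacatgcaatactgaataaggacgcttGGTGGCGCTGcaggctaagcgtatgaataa
Pcdhb19: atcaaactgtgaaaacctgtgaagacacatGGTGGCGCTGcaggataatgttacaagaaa
Pcdhb20: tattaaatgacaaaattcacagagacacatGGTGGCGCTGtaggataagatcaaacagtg
Pcdhb21: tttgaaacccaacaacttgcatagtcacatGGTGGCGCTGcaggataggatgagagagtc

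Among the printed stretches, the letters before the word differed between the ends of the cluster. The longer form ACATGGTGGCGCTG, which contains the word, stood in the windows of Pcdhb19, Pcdhb20 and Pcdhb21 and in no other of the 19, against 4 of 33469 windows in all (0.012%). The form ACGCNNGGTGGCGCTG stood in 8 of the 19, among them Pcdhb2, Pcdhb3 and Pcdhb4, and in no window of another gene. The latter form was also in Pcdhb5, Pcdhb7, Pcdhb10, Pcdhb12 and Pcdhb14, so it was not limited to the start of the cluster. Both forms were written down after the sequences had been read, and both strands were searched. A match or its absence describes only the letters in these windows. The RefSeq genes were not joined to the members of the files one by one.

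NAc libraries held 3460190 to 5011808 counts and VTA libraries 4493742 to 6300965. The mitochondrial share was 22.1% to 36.7% in the NAc and 17.6% to 26.9% in the VTA. The members drew 47049 counts in the alpha-type run, of which 44528 fell on the long alpha-type feature, 36420 in the beta-type run and 27318 in the flank, summed over all libraries. Levels are given as CPM, a count divided by its library's scaled size, and comparisons between genes use CPM per kb of exon. Protocadherin exons resemble each other, and how reads that fit several of them were counted is not given in the sources used here, so values of single members may include reads of a close relative.

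The study sampled the same rats in both regions, so the first comparison was VTA against NAc within the 10 rats. Across the beta-type run the sign of the difference turned with position. Near the start of the run 4 members were higher in the VTA, and from beta-type member 8 to the end 14 of 16 were lower there. In the whole window 38 of 41 members passed the low-count filter, 9 were higher in the VTA, 19 were lower and 10 did not pass, at an adjusted p under 0.05 by edgeR's quasi-likelihood test with Benjamini-Hochberg adjustment over all genes. Of all 14795 genes tested 63.0% were called, 32.0% higher and 31.0% lower, so a call alone does not set the members apart. The flank had 5 higher and 1 lower of 12 tested, the alpha-type run 0 and 4 of 4, and the beta-type run 4 and 14 of 22. In the gamma-type run past the window 0 were higher and 17 lower of 19. The difference held in every rat for 5 members that were higher in the VTA and 16 that were lower, against 17.6% and 19.4% of all genes, and 9 called members differed by more than 2-fold, against 21.7%. The median log2 fold change was 0.35 in the flank, -0.76 in the alpha-type run, -0.65 in the beta-type run and -0.69 in the gamma-type run, against 0.02 over all genes. Less RNA per cell and fewer cells of a type cannot be told apart in such punches, and the regions also differed in punch size, depth and mitochondrial share.

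**Figure D1:**
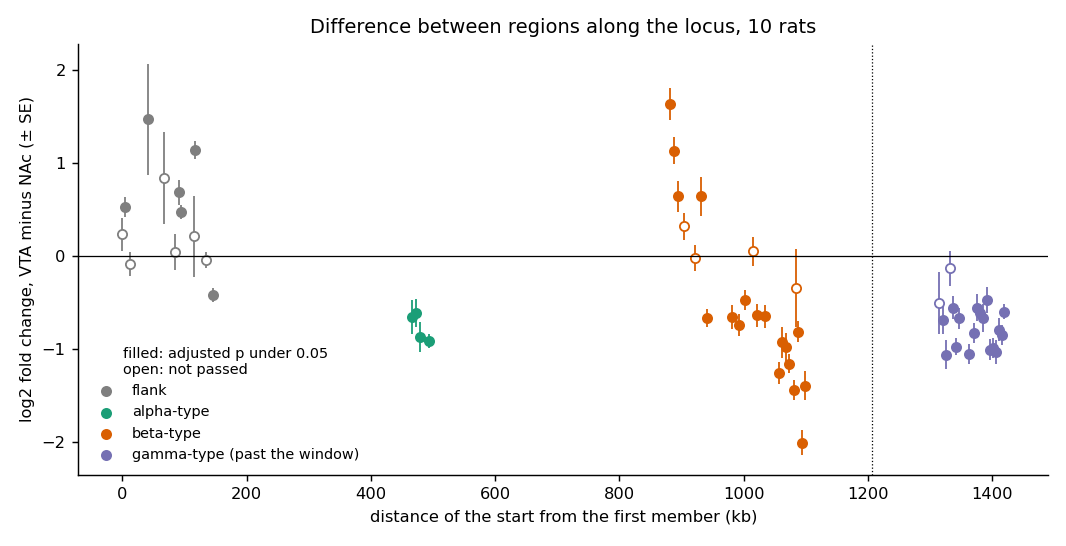
Log2 fold change between VTA and NAc (± SE, 10 rats) of each tested feature against the distance of its start from the first member in kb; filled points passed adjusted p 0.05, open points did not, and the dotted line marks the end of the window. The beta-type points run from 1.63 near the start of their run to -2.004 near its end, and all 19 gamma-type points lie below 0.

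The 2 beta-type members with the largest rise in the VTA lay next to each other. Beta-type member 2 (ENSRNOG00000039476, 30375798 to 30378194), a single-exon feature, had 2.27 to 7.23 CPM in the 14 NAc libraries, with a mean of 3.78 ± 1.35 (SD), and 7.33 to 16.5 CPM in the 10 VTA libraries, with a mean of 11.6 ± 3.32. The ranges did not overlap, and the VTA library was the higher one in 10 of 10 rats. Its level was 3.10-fold higher in the VTA, log2 fold change 1.63 ± 0.18 (SE), adjusted p 9.56e-08. Beta-type member 3 (ENSRNOG00000020095) had 6.79 ± 1.77 CPM in the NAc and 15.8 ± 3.14 in the VTA, and again the ranges of 4.12 to 11.0 and 12.0 to 20.9 CPM did not overlap. It changed by 1.13 ± 0.14 on the log2 scale (adjusted p 8.19e-07). Beta-type members 4 and 7 were higher in the VTA by 0.64 ± 0.17 and 0.64 ± 0.21 on the log2 scale, in 10 and 8 of the 10 rats, with adjusted p of 0.0021 and 0.0129. Between them, members 5 and 6 had log2 values of 0.32 ± 0.15 and -0.02 ± 0.14 and did not pass. Member 1, which lies 89667 nt ahead of the others, had 34 counts in all and was not tested.

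At the far end of the run the order was the opposite. Beta-type member 22 (ENSRNOG00000033479, 30587872 to 30590789) had 25.9 to 48.5 CPM in the NAc (mean 33.7 ± 6.42) and 4.88 to 12.7 CPM in the VTA (mean 8.25 ± 2.41). Every VTA library was below every NAc library. It was 4.01-fold lower in the VTA, log2 fold change -2.004 ± 0.13, adjusted p 9.46e-11. Beta-type member 19 (ENSRNOG00000039469, 30574627 to 30577035), the one with the highest mean CPM of the run in the NAc, had 29.4 to 69.1 CPM there and 12.3 to 20.6 CPM in the VTA. It changed by -1.44 ± 0.11 on the log2 scale (adjusted p 4.25e-10), and the VTA library was the lower one in 10 of 10 rats. A further 4 members of this end, numbers 23, 15, 18 and 17, had log2 fold changes of -1.39, -1.26, -1.16 and -0.97, with SE of 0.10 to 0.15 and adjusted p of 1.13e-05 or less. Within the second part of the run, members 12 and 20 did not pass, at 0.05 ± 0.15 and -0.34 ± 0.42, and member 20 is a feature of 102 nt with 135 counts in all.

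Set against the start coordinate, the log2 fold changes of the 22 tested beta-type members gave a Spearman correlation of -0.826 and a Pearson correlation of -0.859. This is a description across genes that share the same libraries and are not independent replicates. The same measure was -0.189 over the 19 gamma-type features. Taken rat by rat, the Spearman correlation ran from -0.899 to -0.352, with a median of -0.751, and was negative in 10 of 10 rats. The weakest value came from female fentanyl rat 2. Within the NAc the level per kb rose along the run, with a Spearman correlation of 0.678 with position, while in the VTA it was -0.189. The 4 members with 2 exons, numbers 6, 10, 16 and 18, had log2 fold changes of -0.02, -0.74, -0.93 and -1.16, so that they too fell from one to the next along the run.

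**Figure D2:**
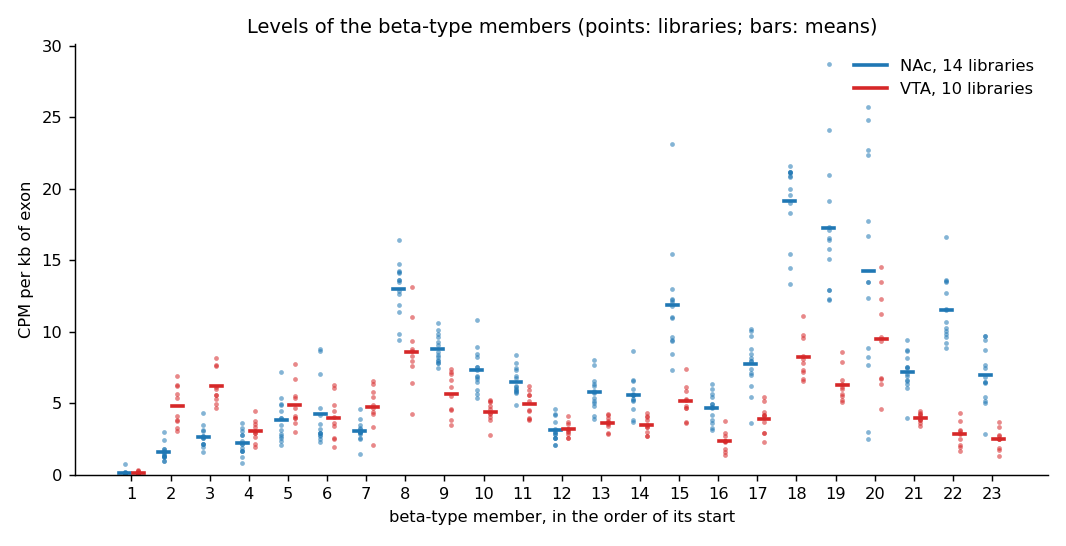
Level of each beta-type member in CPM per kb of exon, in the order of the starts along the run; points are the 14 NAc and 10 VTA libraries and bars their means. NAc means run from 0.128 at member 1 to 19.1 at member 18, and VTA means from 0.133 at member 1 to 9.48 at member 20. Member 20 is 102 nt long and had 135 counts in all.

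Per kb of exon, the beta-type members with the highest NAc levels were numbers 18 (19.1 ± 2.76 CPM per kb), 19 (17.2 ± 4.73), 20 (14.2 ± 7.73), 8 (13.0 ± 1.89) and 15 (11.9 ± 3.85). The SD over the 14 libraries exceeded the step between neighbours in this order. Number 20 rests on few reads: it is 102 nt long with 135 counts in all. By share of the counts of the run it had rank 22 in both regions. In the VTA the highest were numbers 20 (9.48 ± 3.35), 8 (8.55 ± 2.41), 18 (8.24 ± 1.48) and 19 (6.30 ± 1.14), followed by number 3 (6.17 ± 1.23), which was at 2.66 ± 0.69 in the NAc. As shares of the counts of the run, the largest contributors in the NAc were numbers 19 (10.3 ± 1.80%), 18 (8.93 ± 1.16%), 22 (8.44 ± 0.89%) and 10 (8.33 ± 0.88%). Number 22 had rank 3 in the NAc and rank 18 in the VTA, where it gave 3.28 ± 0.88%. Number 3 had rank 19 in the NAc with 1.74 ± 0.54% and rank 4 in the VTA with 6.24 ± 0.67%. The 7 members with the lowest start coordinates, up to 30424814, gave 11.1 ± 2.55% of the counts of the run in the NAc (8.07% to 16.5%) and 27.4 ± 2.26% in the VTA (24.04% to 30.1%). Both regions' ranges were apart, and the VTA share was the higher one in 10 of 10 rats. This division of the run was chosen after the values had been seen and was given no test. Among NAc libraries the share was highest in female saline rat 4 (16.5%), female fentanyl rat 2 (16.1%) and female fentanyl rat 7 (13.2%), and the other 11 lay between 8.07% and 11.5%.

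**Figure D3:**
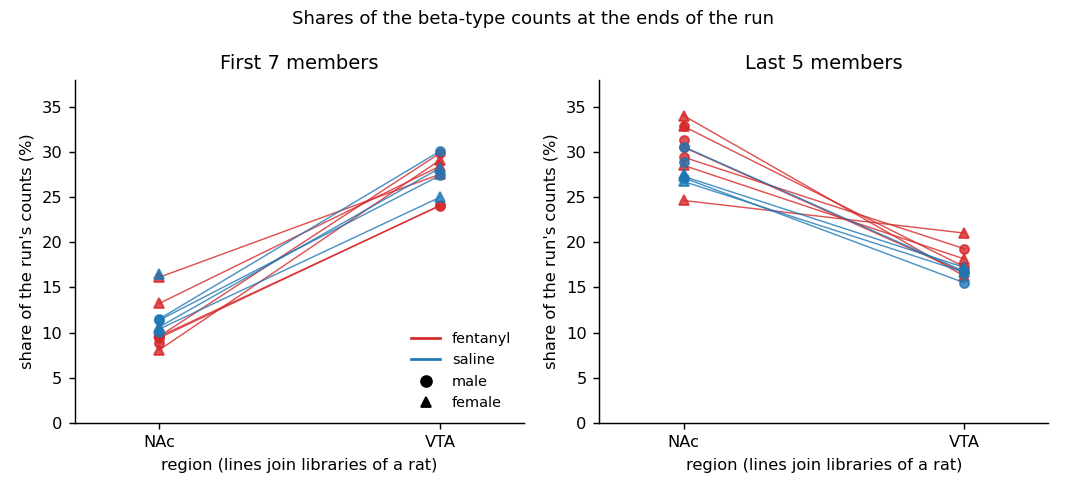
Share of the counts of the beta-type run, in percent, that fell on the first 7 and the last 5 members, for each library; lines join the libraries of one rat, colours give the treatment and symbols the sex. The first 7 members take 8.07% to 16.5% in the NAc and 24.04% to 30.1% in the VTA.

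The alpha-type members were lower in the VTA in all 4 tests. The long alpha-type feature, ENSRNOG00000020119, had 390 to 811 CPM in the NAc (mean 525 ± 105) and 248 to 344 CPM in the VTA (mean 281 ± 34.6), with no overlap. It was 1.88-fold lower in the VTA, log2 fold change -0.91 ± 0.08, adjusted p 3.02e-09, and was lower in 10 of 10 rats. Per kb of exon it stood at 19.4 ± 3.88 CPM in the NAc and 10.4 ± 1.28 in the VTA. Its exon length adds up alternative variable exons, so this level cannot be set against those of single-exon features. Alpha-type members 2, 3 and 4, each a single exon, had 9.75 ± 2.36, 9.68 ± 2.74 and 8.09 ± 1.38 CPM in the NAc and 6.09 ± 1.89, 6.04 ± 1.13 and 4.54 ± 1.10 in the VTA. Their log2 fold changes were -0.65, -0.61 and -0.87, with adjusted p of 0.0046, 0.00155 and 0.000102. Alpha-type member 1 had 39 counts in all and was not tested. Summed over its features, as CPM of the total outside the mitochondrion, the alpha-type run gave 731 ± 121 in the NAc and 407 ± 37.8 in the VTA, and the beta-type run 527 ± 59.5 and 344 ± 40.3. The gamma-type run gave 756 ± 66.7 and 455 ± 65.1, and the flank 301 ± 14.3 and 348 ± 23.8.

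What the flanking features encode is not given in the files. Of the 13, 9 had more than 2 exons. Members 3 and 4, on the plus strand, had 2 exons each, with a longest exon of 2324 and 4109 nt, so that the exon layout alone does not separate them from the 2-exon beta-type members. Flanking member 10, a 13-exon feature starting at 29611547, rose from 11.9 ± 1.49 CPM in the NAc to 26.3 ± 2.61 in the VTA. This was a log2 fold change of 1.13 ± 0.10 (adjusted p 3.29e-09) and a higher VTA library in 10 of 10 rats. Flanking member 7 was higher by 0.68 ± 0.13 (adjusted p 0.000164). It shares 70 nt of exon with member 6 on the opposite strand, and whether strand was used in counting is not given in the sources used here. Members 8 and 2 were higher by 0.47 ± 0.08 and 0.52 ± 0.10, and member 12 was lower by 0.42 on the log2 scale, from 66.4 ± 12.2 to 49.6 ± 4.58 CPM, in 10 of 10 rats. Flanking member 4 was called at 1.47 ± 0.60 with an adjusted p of 0.0422, but rested on few counts. It had 0 to 2.24 CPM in the NAc and 0 to 15.5 CPM in the VTA, with 79 counts in female fentanyl rat 2 and 25 in female fentanyl rat 7 and 0 to 8 in each of the other VTA libraries. It did not pass with DESeq2, without the rat block, or as the mean of 4 region effects fitted by sex and treatment. Nor did it pass without male fentanyl rat 1 or 3, male saline rat 3 or female saline rat 1. The adjusted p was at most 0.103 in these alternatives.

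The series then compared fentanyl with saline within each region. In the NAc of females 8 of 34 tested members passed the adjusted threshold, 6 higher and 2 lower with fentanyl, against 13.5% of all 13248 genes tested (8.05% higher and 5.45% lower). The 6 were 4 of 21 beta-type members, 1 of 4 alpha-type members and 1 of 9 flanking members, and the 2 lower were both in the flank. The median log2 fold change was 0.20 over the beta-type members, 0.18 over the alpha-type and -0.02 over the flank, against 0.00 over all genes, and 17 of the 21 beta-type values were above 0. Of the 19 gamma-type features 1 was called, lower with fentanyl, with a median of -0.07. Fentanyl and saline females did not overlap for 8 of the 34 members, against 24.8% of all genes tested. The mitochondrial share moved with this comparison, 31.6 ± 3.54% of counts with fentanyl (n = 4) against 24.4 ± 2.12% with saline (n = 3). With mitochondrial features left out before scaling the count was again 8. That setting removes only those features, and whether the calls go with the mitochondrial share was not tested.

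The call with the lowest adjusted p in the locus was beta-type member 19 (ENSRNOG00000039469), the member with the highest NAc level by CPM in its run. Fentanyl females had 69.1, 39.95, 58.1 and 50.5 CPM and saline females 29.5, 36.3 and 29.4 CPM. The 2 groups did not overlap. This was a log2 fold change of 0.78 ± 0.16 (adjusted p 0.00348), and it passed in all 20 alternatives run. Beta-type member 15, starting at 30550877, had 54.6, 27.8, 36.5 and 26 CPM with fentanyl and 22.7, 22.1 and 17.3 with saline, again without overlap. The log2 value of 0.80 ± 0.21 had an adjusted p of 0.0161, which was 0.0862 at most and did not pass without female saline rat 4 or with the female groups alone. Female fentanyl rat 1 was the highest library for both members.

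Beta-type member 10, a 2-exon feature starting at 30487264, had 40.5, 37.4, 49.1 and 38.4 CPM with fentanyl and 34.0, 30.4 and 25.5 with saline, log2 fold change 0.47 ± 0.14, adjusted p 0.0303. It did not pass without female fentanyl rat 7 or female saline rat 2 or 4. Nor did it pass with the female groups alone or with the replicate number as a block. Beta-type member 22 had 48.5, 28.0, 39.6 and 39.4 CPM against 29.4, 25.9 and 26.9, and here the groups overlapped. The log2 value of 0.50 ± 0.16 had an adjusted p of 0.0358. Beta-type member 22 did not pass without any one of 3 fentanyl rats (1, 7 and 8) or 3 saline rats (1, 2 and 4). Nor did it pass with the female groups alone or with the replicate number as a block. The 4 called beta-type members all lay in the part of the run that was lower in the VTA. That part held 15 of the 21 tested members, and both comparisons share NAc libraries. None of the 6 tested members nearest the start passed, and their log2 values ran from -0.56 to 0.68. The median of these 6 was 0.24, against 0.20 over the 15.

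**Figure D4:**
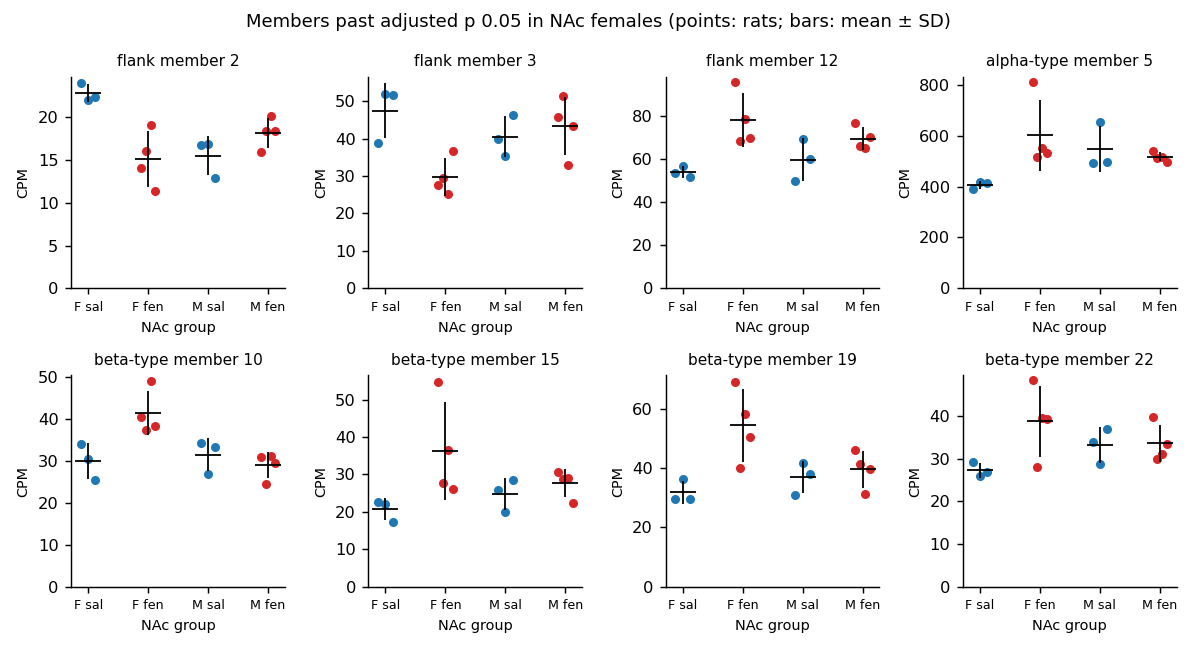
Level in CPM of the 8 members past adjusted p 0.05 in NAc females, in the 4 NAc groups (F, female; M, male; sal, saline; fen, fentanyl); points are rats and bars the mean ± SD. Fentanyl and saline females are apart for 7 of the 8, all but beta-type member 22, but the 8 were picked by the test of these same groups. Over all 34 tested members they are apart for 8, against 24.8% of all genes tested.

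The long alpha-type feature, ENSRNOG00000020119, had 811, 516, 552 and 532 CPM in fentanyl females and 390, 419 and 415 CPM in saline females. All fentanyl values were above all saline values, and rat 1 stood apart at the top. This was a log2 fold change of 0.57 ± 0.13 (adjusted p 0.00657), and it passed in all 20 alternatives, with log2 values from 0.40 to 0.65. The single-exon alpha-type members 2 to 4 did not pass, at -0.02 ± 0.26, 0.17 ± 0.26 and 0.18 ± 0.23. In the flank, member 12, a 6-exon feature, had 95.5, 68.2, 78.6 and 69.8 CPM against 53.2, 56.8 and 51.4, log2 fold change 0.54 ± 0.12, adjusted p 0.00667. The 2 members that fell lie side by side. Flanking member 3 (ENSRNOG00000002908) had 27.5, 29.6, 25.3 and 36.8 CPM with fentanyl and 38.9, 52.0 and 51.6 with saline, log2 fold change -0.66 ± 0.16, adjusted p 0.0084. Flanking member 2 (ENSRNOG00000017849) had 14.1, 16.1, 19.1 and 11.3 CPM against 24.1, 22.1 and 22.4, log2 fold change -0.58 ± 0.17, adjusted p 0.0263. That last call was lost in 7 of 20 alternatives, among them leaving out female fentanyl rat 1 or 8 or any one of the 3 female saline rats.

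In NAc males edgeR called 0 of 34 members, 1 had an unadjusted p under 0.05, and edgeR called 0% of all genes (6.42% unadjusted). DESeq2 called 0 of the 13 members to which it gave an adjusted p. Of the 21 beta-type values 5 were above 0 and 16 below, with a median log2 fold change of -0.11. Beta-type member 19 had 46.0, 41.1, 31.2 and 39.6 CPM in fentanyl males and 31.0, 41.7 and 38.05 in saline males. The long alpha-type feature had 540, 513, 519 and 497 CPM against 495, 654 and 499. The groups overlapped in both, and saline male rat 3 was the highest library for the alpha-type feature. The member with the unadjusted p was flanking member 6, at 0.67 ± 0.30 with an adjusted p of 0.752. Flanking member 12 was at 0.23, and beta-type members 14 and 13 were at -0.37 and -0.35. The SE of the 34 values ran from 0.13 to 0.43 with a median of 0.21, close to the 0.20 in females, and a value that missed the threshold is not shown to be unchanged.

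Whether the effect differed between the sexes was tested itself. None of the 34 members passed for the female effect minus the male effect (8 at an unadjusted p under 0.05), against 0.77% of all genes (14.1% unadjusted), and DESeq2 called 1 of the 20 members to which it gave an adjusted p. The long alpha-type feature differed by 0.65 ± 0.18 (adjusted p 0.0902), flanking member 7 0.83 ± 0.28, and flanking members 3 and 2 -0.76 ± 0.22 and -0.82 ± 0.25, with adjusted p of 0.102 to 0.168. Averaged over the sexes, 2 members passed in the NAc, against 7.51% of all genes, and both were also called in females alone. These were flanking member 12 (0.38 ± 0.09, adjusted p 0.0129) and beta-type member 19 (0.44 ± 0.12, adjusted p 0.024). Neither passed with the replicate number as a block (adjusted p 0.0641 and 0.186). Member 19 also did not pass without male fentanyl rat 1 or 2, male saline rat 1 or 4, or female saline rat 1 or 4.

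In the VTA no member was called with fentanyl in females, in males, in the mean of the sexes or for the difference between them, among 36 tested with edgeR or 37 to 41 tested with DESeq2. Unadjusted p under 0.05 was reached by 2, 0, 0 and 2 members, against 7.62%, 4.50%, 8.83% and 3.31% of 14400 genes, and edgeR called 0% of all genes in each. With 3 fentanyl and 2 saline rats of each sex the SE had a median of 0.29 in either sex. Flanking member 8 was at 0.39 ± 0.17 in females, with an adjusted p of 0.644. Beta-type members 18 and 9 were at -0.33 and -0.27 in females, and member 9 was at -0.50 in males. Beta-type member 19, called in NAc females, had 20.6, 13.5 and 15.9 CPM in fentanyl females and 12.5 and 14.5 in saline females of the VTA, where the groups overlapped. The long alpha-type feature had 331, 263 and 275 CPM against 251 and 252 in VTA females, where fentanyl was above saline in these 3 and 2 rats. In VTA males it had 295, 256 and 344 CPM with fentanyl and 297 and 248 with saline, and the groups overlapped. It passed in neither sex. The change of the region difference with fentanyl was also tested over the 10 rats: 0 of 38 members passed (2 unadjusted; DESeq2 called 0 of 41), against 5.68% of genes unadjusted. Beta-type members 9 and 15 had values of -0.55 ± 0.24 and -0.45 ± 0.21, each with an adjusted p of 0.857, and flanking members 3 and 2 had values of 0.32 and 0.25.

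The spread between rats of a group is given as a coefficient of variation, beside the value that counting error alone would give. Over groups with at least 3 rats, the coefficient of variation of the 21 beta-type members with a mean of 20 or more counts had a median of 21.7% (14.3% to 35.4%), where counting alone gives a median of 13.9%. For 9 flanking members the medians were 14.7% and 10.1%, and for 4 alpha-type members 24.2% and 17.2%. The most variable of the 21 was beta-type member 6, a 2-exon feature starting at 30416038, at 35.4%. In the NAc, females had 10.9, 20.2, 20.5 and 7.47 CPM on fentanyl and 5.87, 5.41 and 16.5 on saline. Males had 6.82, 6.82, 6.81 and 6.46 CPM on fentanyl and 6.26, 9.67 and 8.31 on saline. Female rats held both the lowest and the 4 highest of these 14 values. In the VTA, females had 11.4, 14.1 and 14.6 CPM on fentanyl and 4.53 and 8.52 on saline, and males 7.93, 6.06 and 5.89 on fentanyl and 9.37 and 10.4 on saline. Female fentanyl rats 2 and 7 had the 2 highest levels in both regions. Over the 10 rats the SD of its log2 level was 0.68 in the NAc and 0.52 in the VTA, but 0.39 for the within-rat difference. It was the 1 of 21 beta-type members for which the difference varied less than either level. With fentanyl it was at 1.05 ± 0.30 in VTA females (adjusted p 0.533) and -0.58 in VTA males, and the difference between the sexes was 1.63 ± 0.42 (adjusted p 1.00), none of which passed.

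**Figure D5:**
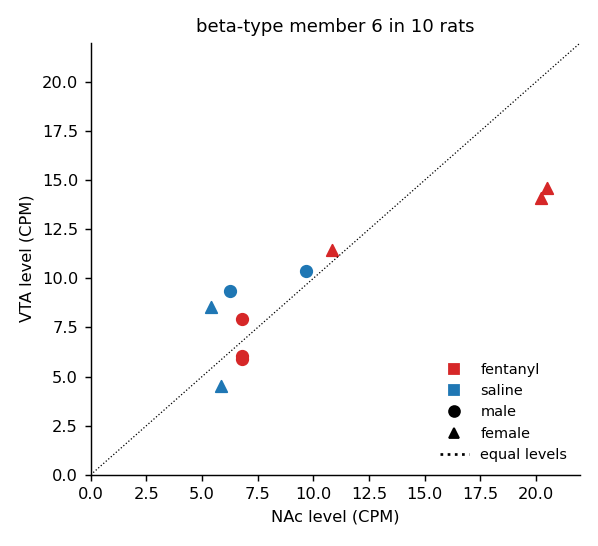
VTA level against NAc level of beta-type member 6, both in CPM, for the 10 rats with both libraries; colours give the treatment, symbols the sex, and the dotted line marks equal levels. Female fentanyl rats 2 and 7 lie farthest to the upper right, at 20.2 and 20.5 CPM in the NAc and 14.1 and 14.6 in the VTA.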

How the data were processed

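The deposited files hold whole-number read counts per Ensembl gene, 1 file per library, with exon coordinates and exonic length. Per the submitters' processing notes, the authors used Trimmomatic 0.36, STAR 2.5.2b, featureCounts of Subread 1.5.2 and DESeq2; the genome build, strand setting and treatment of multi-mapping reads were not given in the sources used here. Here the counts were tested as deposited with edgeR 4.0.16 (R 4.3.3) by its quasi-likelihood F test (filterByExpr, TMM, robust, two-sided), with Benjamini-Hochberg adjustment over all genes tested and a threshold of 0.05. NAc and VTA libraries were fitted separately with 4 groups of sex and treatment. Regions were compared in 20 libraries of 10 rats, with rat as a block. CPM used one TMM scale over 24 libraries, with mitochondrial features in the totals, and log2 ratios per rat an offset of 0.5 CPM. The fits were tested on simulated data. Alternatives were DESeq2 1.42.0, its size factors in edgeR, no low-count filter, mitochondrial features left out, each library or rat left out, the replicate block and the 2 groups of a sex alone. For the region comparison they also included no rat block and the mean of 4 region effects. No library was a copy of another of its group. In the 26 within-group pairs, chi-square divided by its degrees of freedom was 2.91 to 24.5, and pairs across groups were not compared. Members, lists and division points were chosen with earlier results of these data known. Members named were those past the threshold where 12 or fewer, otherwise the 6 largest each way; where none passed, the 2 smallest unadjusted p each way; and the 4 with the highest CPM in each run. Since no symbols could be matched, the cell type markers and the lists of chromatin regulators, other protocadherins and partners were not analysed here, and the tissue labels were not checked against markers.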

Additional observations from a re-analysis of the deposited data

Results flagged for a closer look

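Of 87 sets of 4 or 10 values examined, 5 held a value far from the rest; about 1 in 20 sets does so by chance. The long alpha-type feature had 811 CPM in NAc female fentanyl rat 1, against 516 to 552 CPM in the other 3. Beta-type member 14 had 20.8 CPM in NAc female fentanyl rat 7, against 13.4 to 13.5 in the other 3. Beta-type member 6 had 6.46 CPM in NAc male fentanyl rat 7, where the other 3 lay within 6.81 to 6.82 CPM, so that this gap is small. Flanking member 4 had 1.01 CPM in NAc male fentanyl rat 2, a level of 4 counts, against 0.259 to 0.284 CPM. Flanking member 7 was lower in the VTA than in the NAc in male saline rat 3, at -0.44 on the log2 scale, and higher in the other 9 rats, at 0.35 to 1.24.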

How the results depend on the processing

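No named member changed direction: of 847 alternative values for 50 values of named members, 802 stayed on their side of the threshold, 37 lost the call and 8 gained one. The 28 calls between regions were 27 to 30 in every alternative, and 27 without the rat block. In NAc females the 8 calls were 4 with the 2 female groups alone, 6 with the replicate block, 10 with no low-count filter, and 5 to 9 with 1 library left out, the lowest without female saline rat 2. In the mean of the sexes the 2 NAc calls came to 4 without the low-count filter, 1 under the replicate block, which was neither of the 2, and 1 to 4 with 1 library left out. The 0 calls for the difference between the sexes in the NAc came to 1 under DESeq2 (20 members tested), 2 without the low-count filter, 1 under the replicate block and 0 to 2 with 1 library left out. With no low-count filter, VTA females and the VTA mean had 1 call each. The summed flank differed between regions by 0.21 on the log2 scale per rat, and by 0.34 with mitochondrial features in the total. No sign was seen that the replicate numbers of the labels pair the rats. Residuals of same-numbered rats correlated by -0.0146 on average in the NAc (12 pairs, -0.130 to 0.185) and 0.00144 in the VTA (10 pairs, -0.288 to 0.206). So few pairs, in groups this small, cannot exclude a pairing. The median over all genes in the region comparison was 0.02 with edgeR and -0.18 with DESeq2, which tested 18970 genes in place of 14795. The cause of these changes was not tested. Members with few counts, such as flanking member 4, are limited by depth.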
